A study of Mus musculus with 6 samples.

Results

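The collagen genes of the fetal mouse testis were taken as the rows of the normalised expression table whose symbol is Col, a number, a and a number, which gave 43 of the 16862 genes listed. They comprised 11 fibrillar collagens, 9 basement membrane collagens and 23 others, namely the beaded filament chains of type VI, the fibril-associated, short-chain network and transmembrane collagens, and Col28a1. Gonads of male C57BL/6 embryos at E13.5, a stage given in embryonic days, were profiled by RNA sequencing. Wild-type embryos gave 3 libraries, numbered 1, 3 and 4, and L/H-Pgds-/- embryos gave 3, numbered 5, 7 and 8; both groups were of the same strain, sex and stage. The L/H-Pgds-/- genotype, called knockout below, lacks L-Pgds, which Ptgds encodes, and H-Pgds, which Hpgds encodes, the pair of enzymes that make prostaglandin D2. The labels speak of littermates without saying which libraries shared a litter or whether a library is 1 embryo. That each library is 1 embryo was assumed. The design of the deleted alleles is not given in the sources used here.

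Collagens are secreted proteins whose chains wind around each other in a helix, either as identical chains or as fixed sets of partner chains. Fibrillar collagens build the tensile fibres of connective tissue, type IV collagen forms the sheet of the basement membrane, and fibril-associated and type VI collagens link fibres to other matrix. In the fetal testis a basement membrane surrounds each cord of Sertoli and germ cells, and the interstitium between the cords holds mesenchyme, vessels and Leydig cells.

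Values below are the authors' upper-quartile normalised pseudo-counts, which are adjusted values and not reads, so the depth behind them is unknown. Changes are knockout minus wild type on the log2(value + 1) scale, tested with limma over all 15116 genes that reached 10 in at least 3 libraries, with Benjamini-Hochberg adjustment and a threshold of 0.05. As a check of the labels, Ptgds held 6560, 8137 and 8712 in wild type and 15.2, 4.0 and 2.94 in knockout. Hpgds held 45.0 to 55.0 in wild type and 87.3 to 104 in knockout; since the deleted part of Hpgds is not given, its value checks nothing. Markers of Sertoli cells summed to between 59718 and 111587 per library and markers of interstitial cells to between 30929 and 35626, so both compartments of the male gonad were present. Wild-type library 1 stood apart in 6 skeletal muscle markers, which summed to 16845 there and to between 587 and 1102 in the other 5 libraries.

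Of the 43 collagen genes, 40 passed the filter on low values. Collagen transcripts made up 0.828% to 1.07% of the summed values in wild type and 0.955% to 1.11% in knockout, and these ranges overlapped. Among the 40, 7 were higher in the knockout and 0 were lower in limma's test, where 17.3% of all genes tested were higher and 17.0% lower, 34.3% in all. The share of collagen genes called higher was near the share of all genes. At an unadjusted p under 0.05, 10 collagen genes were higher and 0 lower. The share of all genes at that unadjusted threshold was not taken. It is at least the 17.3% higher and 17.0% lower given above, since adjustment never lowers a p-value. This count is description only. The 7 that rose were Col27a1 and Col11a1 among 11 fibrillar genes, Col4a4 and Col4a5 among 9 basement membrane genes, and Col6a6, Col9a1 and Col14a1 among the 20 others tested. In bulk tissue, more cells of a type and more RNA per cell cannot be told apart, which holds for each of these differences.

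The log2 differences of the 40 members tested ran from -0.39 to 1.00. The median log2 difference was 0.03 over the 40 genes, 0.10 for fibrillar, 0.17 for basement membrane and -0.07 for other collagens, against -0.03 over all genes tested. In 6 members, the 7 called genes other than Col4a5, every knockout library lay above every wild-type library. Over all genes tested, 50.3% had groups apart, 24.7% in that direction and 25.6% in the other, in which 0 collagen genes were apart. Without wild-type library 1, again 7 members were higher and 0 lower (15.5% and 14.3% of all genes, 29.8% in either direction). Col25a1 was called there in place of Col9a1, and the median over the 40 members was 0.18.

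Collagen transcripts are long, with a median of 6284.5 nt against 3121 nt for all genes tested, and GC-rich, at 55.9% against 50.6%. Length and GC content were therefore fitted to the values of each library and their fitted part was subtracted. With this length and GC trend removed, 1 member, Col27a1, was higher and 0 were lower, against 6.07% and 6.64% of 14449 genes, or 12.7% in either direction. With wild-type library 1 left out as well, Col27a1, Col4a4 and Col6a6 were higher and 0 members were lower (5.83% and 6.10% of genes, 11.9% in either direction).

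**Figure D1:**
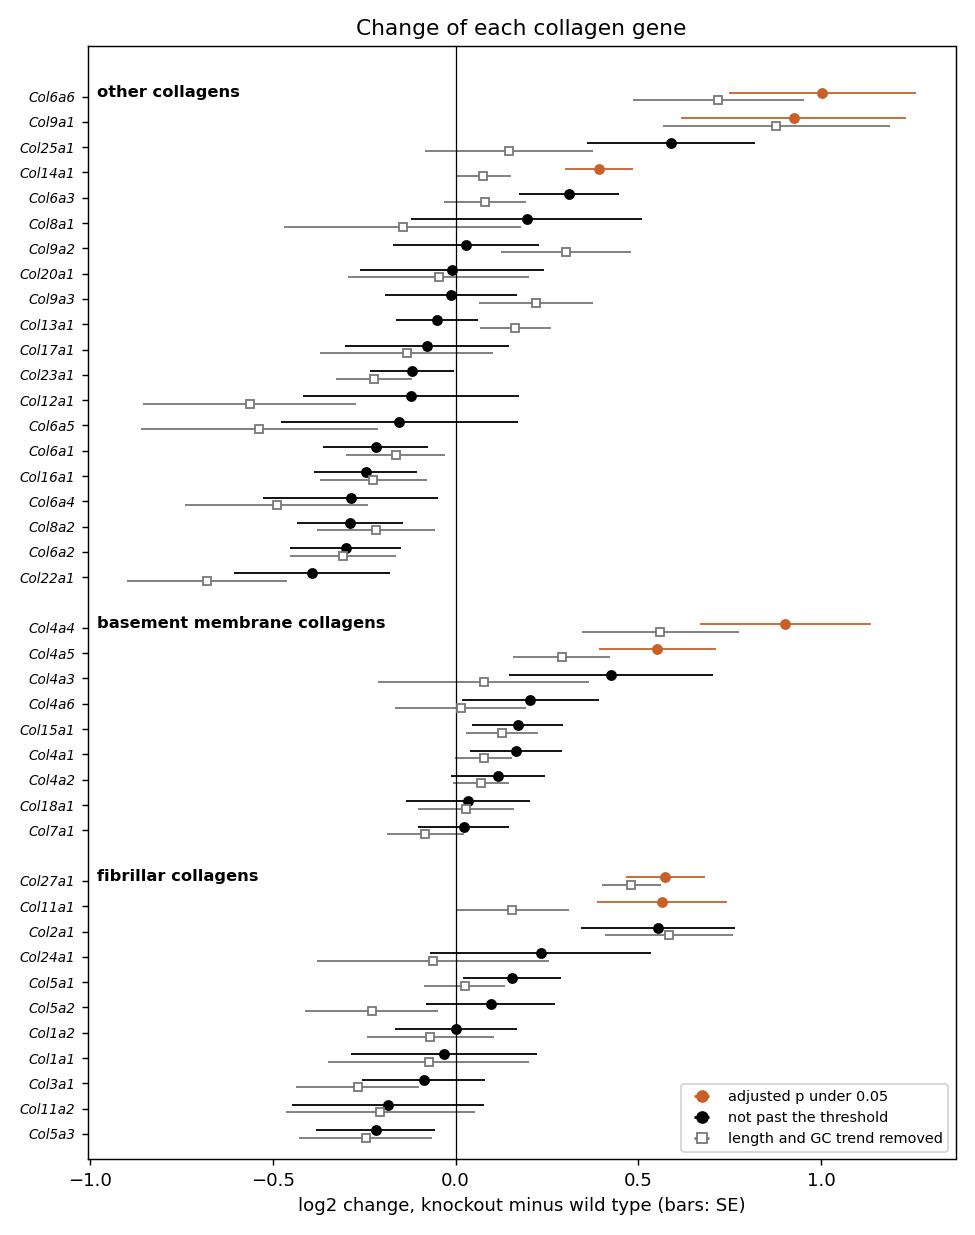
Log2 change of the 40 tested collagen genes (x axis, knockout minus wild type) by class, with filled points for the values as deposited, orange where the adjusted p was under 0.05, open squares for values with the length and GC trend removed, and bars for SE. The 7 orange points all lie above 0, and Col27a1 keeps nearly its place after the trend is removed (0.57 and 0.48).

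Per transcript length, the tissue was dominated by a few chains. Dividing each value by the length of the longest coding transcript, Col3a1, the chain of type III collagen, had the highest wild-type mean, 7409 ± 1724 per kb (SD, n = 3). It was followed by Col1a2 at 5810 ± 1429, Col18a1 at 4135 ± 949 and Col4a1 at 4029 ± 397. The wild-type libraries of each of the first 3 overlapped those of the next gene in the order, while those of Col4a1 lay apart from those of Col9a3, the fifth at 3161 ± 693 per kb. The 8 genes with the highest wild-type level, which also included Col6a1, Col6a2 and Col1a1, held 79.0% ± 1.87 (SD, n = 3) of the summed wild-type collagen level per kb and 77.2% ± 1.28 (SD, n = 3) of that in knockout. The lowest of the 40 was Col6a5, at 4.29 ± 1.88 per kb.

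By class, fibrillar collagens made up 41.8% ± 6.77 (SD, n = 3) of the summed level per kb in wild type and 41.6% ± 4.42 (SD, n = 3) of that in knockout. Basement membrane collagens made up 26.8% ± 5.03 and 29.0% ± 2.26, and the others 31.4% ± 1.96 and 29.4% ± 2.28. Each difference between the genotypes was of the size of the spread between libraries or smaller. The genes that rose were mostly not the abundant ones. Ranked by wild-type level per kb, Col14a1 was 16th of the 40, Col27a1 20th, Col4a5 21st, Col11a1 23rd, Col9a1 24th, Col6a6 36th and Col4a4 37th.

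**Figure D2:**
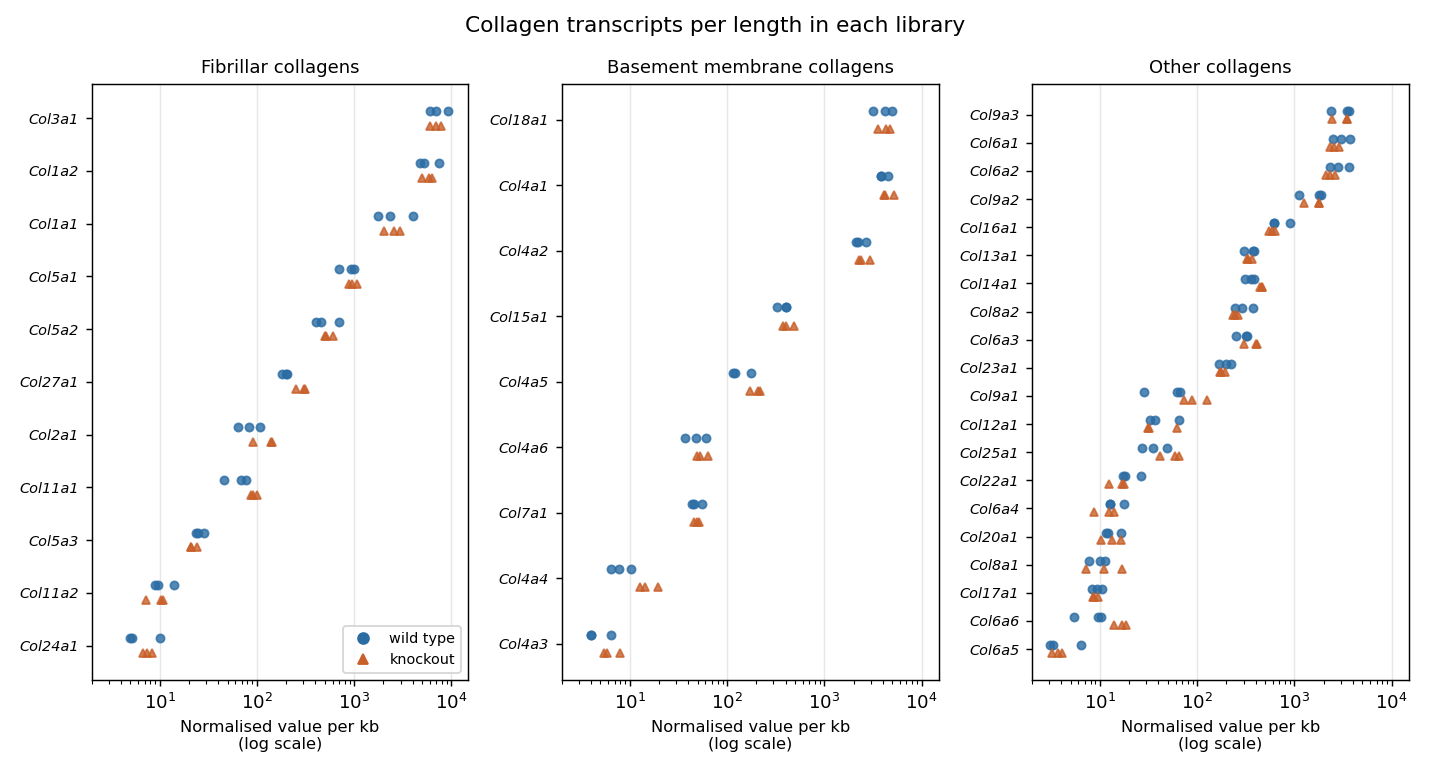
Normalised value per kb of transcript (log x axis) of each tested collagen gene in every library, blue circles for wild type and orange triangles for knockout, in panels by class and ordered by wild-type mean. The abundant chains such as Col3a1, Col18a1 and Col6a1 overlap between genotypes, whereas Col4a4 and Col6a6 near the bottom of their panels do not.

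Among fibrillar collagens, the main chains of the interstitial fibres showed no difference past the test. Col1a1, the first chain of type I collagen, held 23965, 13855 and 10533 in wild-type libraries 1, 3 and 4 and 12116, 17732 and 15237 in knockout libraries 5, 7 and 8. Wild-type library 1 was the highest and wild-type library 4 the lowest of the 6, so the groups overlapped fully. Its log2 difference was -0.03 with a 95% interval from -0.59 to 0.53 (limma adjusted p = 0.933). Col1a2, its partner chain, held 39725, 28262 and 25234 in wild type and 26964, 33699 and 31284 in knockout (log2 0.00, SE 0.17, adjusted p = 0.995). Col3a1 held 51900, 38431 and 33338 in wild type and 33340, 43428 and 38289 in knockout (log2 -0.09, SE 0.17, adjusted p = 0.711). The 3 genes ordered the libraries alike within each genotype, with library 1 the highest in wild type and library 7 the highest in knockout.

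Col27a1, a fibrillar collagen known from developing cartilage, rose in the knockout. It held 1368, 1564 and 1513 in wild type and 2339, 1902 and 2401 in knockout, and the groups did not overlap. Its log2 change was 0.57 (SE 0.11, limma adjusted p = 0.00371), a 1.49-fold rise. It was 0.52 (adjusted p = 0.00745) without wild-type library 1, 0.48 (SE 0.08, adjusted p = 0.00783) with the length and GC trend removed and 0.44 (adjusted p = 0.01) with both. Col27a1 passed the threshold in the same direction in each of the 19 alternative settings run. Col27a1 (NCBI gene 373864) spans chromosome 4 from 62876446 to 62996024 in mm9, the build of the deposited table. The 250 bases before its RefSeq start, chr4:63215162-63215411 on the plus strand of GRCm38.p6, are shown because it was the member least dependent on the processing, with the match to the GC box GGGCGG in capitals.
Col27a1: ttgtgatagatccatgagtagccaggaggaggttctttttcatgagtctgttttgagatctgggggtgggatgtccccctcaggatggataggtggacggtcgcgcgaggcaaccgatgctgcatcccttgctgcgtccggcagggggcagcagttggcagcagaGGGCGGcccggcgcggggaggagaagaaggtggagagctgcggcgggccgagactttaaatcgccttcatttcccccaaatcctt
The window holds 1 GC box and no match on either strand to the other motifs searched, namely the CCAAT box (letters CCAAT), the TATA box (searched as TATAAA) and a motif that SOX transcription factors read (its core, AACAAT). In all, 35 of the 43 collagen genes had such a window, and 21 of them held a GC box, 13 a CCAAT box, 5 a TATA box and 1 the SOX core. In the same order, the shares over all 32851 windows were 32.7%, 33.8%, 12.4% and 9.42%. These shares are per window, whereas the collagen counts are per gene over 38 windows, so a gene with more than 1 window had more chances of a match. These matches describe letters and no measurement of binding was made.

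Col11a1, a minor fibril chain that helps to set fibre diameter, also rose, from 527, 595 and 351 in wild type to 701, 773 and 660 in knockout. The groups did not overlap, and wild-type library 4 was the lowest. This was a log2 change of 0.57 (SE 0.18, adjusted p = 0.0322), and 0.16 (adjusted p = 0.563) with the length and GC trend removed. Leaving out wild-type library 4 (log2 0.34, adjusted p = 0.0899) or any 1 of knockout libraries 5, 7 and 8 (0.0829, 0.0951 and 0.0519) also ended the call. Col11a1 (NCBI gene 12814) spans chromosome 3 from 113733458 to 113923244. Its partner Col11a2 was low, between 43.8 and 85.1, and did not pass the test (log2 -0.19, SE 0.26, adjusted p = 0.609).

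The other fibrillar genes did not pass the test. Col2a1, the main collagen of cartilage, held 328, 544 and 425 in wild type and 732, 464 and 708 in knockout (log2 0.55, SE 0.21, adjusted p = 0.0662). Wild-type library 1 and knockout library 7 were each the lowest of their genotype, and Col2a1 passed without knockout library 7 (log2 0.76, adjusted p = 0.0194) or without wild-type library 3 (0.73, 0.0248). Col5a1, Col5a2, Col5a3 and Col24a1 had log2 differences between -0.22 and 0.23.

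Type IV collagen comes in 3 head-to-head gene pairs, of which the first encodes the common basement membrane network and the others encode chains of more specialised membranes, such as those of the kidney glomerulus and of smooth muscle. Col4a1 held 25083, 29682 and 25184 in wild type and 27223, 28091 and 34537 in knockout (log2 0.16, SE 0.13, adjusted p = 0.333). Col4a2 held 13596, 17406 and 14403 in wild type and 15524, 14697 and 19043 in knockout (log2 0.12, SE 0.13, adjusted p = 0.508). Both were highest in knockout library 8, and for both the groups overlapped.

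Col4a4 rose in the knockout, from 105, 78.7 and 65.6 in wild type to 144, 128 and 196. The groups did not overlap, with knockout library 8 the highest and wild-type library 4 the lowest. On the log2 scale the change was 0.90 (SE 0.23, adjusted p = 0.0144), or 1.87-fold, and 1.08 (adjusted p = 0.00361) without wild-type library 1. With the length and GC trend removed it was 0.56 (adjusted p = 0.122), and 0.74 (adjusted p = 0.034) with wild-type library 1 left out as well. Its adjusted p rose to 0.0598 when wild-type library 4 was left out and to 0.0561 when knockout library 8 was. Col4a4 (NCBI gene 12829) spans chromosome 1 from 82447298 to 82583424 in mm9. Its neighbour Col4a3, with 71 bases between the spans, held 54.4, 34.5 and 34.2 in wild type and 50.02, 68.6 and 46.1 in knockout and did not pass (log2 0.42, SE 0.28, adjusted p = 0.263).

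Col4a5, mutated in X-linked Alport syndrome, rose from 793, 1155 and 761 in wild type to 1126, 1427 and 1368 in knockout. Wild-type library 3 lay above knockout library 5, so the groups overlapped. The log2 change was 0.55 (SE 0.16, adjusted p = 0.0231), 0.47 (adjusted p = 0.042) without wild-type library 1 and 0.29 (adjusted p = 0.186) with the length and GC trend removed. Leaving out wild-type library 4 (adjusted p = 0.0977) or knockout libraries 7 or 8 (0.0744 and 0.0677) also ended the call. The gene (NCBI gene 12830) spans chromosome X from 137909962 to 138123778 in mm9, with 1342 bases between it and Col4a6. Col4a6 held 317, 408 and 244 in wild type and 324, 424 and 354 in knockout, and did not pass (log2 0.20, SE 0.19, adjusted p = 0.422).

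The start regions of this pair are shown because the genotypes did not overlap in the ratio of Col4a5 to Col4a6, given below, at the smallest p that its test allows. They are the 250 bases before each RefSeq start in GRCm38.p6, chrX:141475169-141475418 on the plus strand for Col4a5 and chrX:141474077-141474326 on the minus strand for Col4a6, each written along its own gene. Capitals mark matches to the GC box GGGCGG or its reverse complement and to CCAAT.
Col4a5: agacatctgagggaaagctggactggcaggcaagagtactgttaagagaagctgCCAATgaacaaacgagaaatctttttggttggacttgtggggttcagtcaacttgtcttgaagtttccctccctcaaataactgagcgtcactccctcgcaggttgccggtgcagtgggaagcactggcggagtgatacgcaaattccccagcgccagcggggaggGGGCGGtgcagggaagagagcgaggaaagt
Col4a6: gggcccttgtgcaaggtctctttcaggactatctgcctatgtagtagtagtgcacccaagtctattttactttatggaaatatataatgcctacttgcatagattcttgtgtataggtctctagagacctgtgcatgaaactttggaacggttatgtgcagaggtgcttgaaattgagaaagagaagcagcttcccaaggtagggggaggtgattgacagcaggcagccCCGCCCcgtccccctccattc
Col4a5 has 1 GC box and 1 CCAAT in its window, and Col4a6 has 1 GC box and no CCAAT.

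The remaining basement membrane collagens did not pass the test. Col18a1, the source of endostatin, held between 17548 and 28114 in all libraries, with wild-type library 1 and knockout library 7 the lowest of their genotypes (log2 0.03, SE 0.17, adjusted p = 0.893). Col15a1, its relative, and Col7a1, the anchoring fibril chain, had log2 differences of 0.17 and 0.02. All 9 genes of this class had a log2 difference above 0 as deposited, but 7 of them did not pass the test. The share of all genes above 0 was not taken, and the median over all genes tested was -0.03. The class median was 0.17 as deposited and 0.08 with the length and GC trend removed, where the median over all genes was -0.01. The number above 0 was 8 of 9 under quantile normalisation, with the trend removed and without wild-type library 4. It was 7 of 9 when knockout library 8 was left out or when wild-type library 1 was, the latter with or without the trend.

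Among the other collagens, Col6a6 had the highest log2 change of the 40 tested in the values as deposited, just above Col9a1 (95% intervals from 0.43 to 1.57 and from 0.24 to 1.61). This type VI chain held 83.1, 89.4 and 47.6 in wild type and 121, 147 and 163 in knockout, with no overlap. The log2 change was 1.00 (SE 0.26, adjusted p = 0.0137), or 2.0-fold, and 1.12 (adjusted p = 0.00636) without wild-type library 1. With the length and GC trend removed it was 0.72 (adjusted p = 0.0751), below the 0.88 of Col9a1, and 0.84 (adjusted p = 0.0387) without wild-type library 1 as well. Without knockout library 8 the adjusted p was 0.0501. The gene (NCBI gene 245026) spans chromosome 9 from 105591747 to 105730415 in mm9.

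The other type VI chains did not pass the test. Col6a1 held 15158, 12252 and 10154 in wild type and 9575, 10500 and 11910 in knockout (log2 -0.22, SE 0.14, adjusted p = 0.262). Col6a2 held 16850, 12917 and 10916 in wild type and 9711, 10735 and 12207 in knockout (log2 -0.30, SE 0.15, adjusted p = 0.151). Wild-type library 1 was the highest for both. Col6a3, the long chain that joins them, held 3322, 3227 and 2562 in wild type and 3068, 4173 and 4088 in knockout (log2 0.31, SE 0.14, adjusted p = 0.106), and passed without knockout library 5 (0.45, 0.035). Col6a4 held 129, 92.5 and 92.6 in wild type and 63.3, 104 and 92.4 in knockout (log2 -0.29, SE 0.24, adjusted p = 0.376). Col6a5 held 60.0, 30.9 and 28.6 in wild type and 29.6, 34.3 and 37.8 in knockout (log2 -0.15, SE 0.32, adjusted p = 0.737).

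Col9a1, a fibril-associated chain known from cartilage and the eye, rose from 109, 239 and 257 in wild type to 481, 282 and 343 in knockout. The groups did not overlap, but wild-type library 1 was far below the other wild-type libraries and knockout library 5 above the other knockout ones. The log2 change was 0.92 (SE 0.31, adjusted p = 0.0402), and 0.53 (adjusted p = 0.0516) without wild-type library 1. The call also ended without knockout library 5 (0.72, adjusted p = 0.153), without knockout library 8 (0.96, 0.079) and with the length and GC trend removed (0.88, 0.0973). Col9a1 (NCBI gene 12839) spans chromosome 1 from 24184449 to 24259577 in mm9. Its partners Col9a2 and Col9a3 were far more abundant and showed log2 differences of 0.03 (SE 0.20) and -0.01 (SE 0.18), with adjusted p = 0.924 and 0.965. Col9a2 held 3286, 5501 and 5259 in wild type and 5268, 3636 and 5259 in knockout, and Col9a3 followed the same pattern, low in wild-type library 1 and knockout library 7.

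Col14a1, a fibril-associated collagen of dense connective tissue, rose from 2012, 2458 and 2323 to 2995, 2871 and 3025. Its groups did not overlap and the knockout libraries were close to each other. The log2 change was 0.39 (SE 0.09, adjusted p = 0.00995), and 0.31 (adjusted p = 0.0389) without wild-type library 1. The call was kept with each library left out in turn (adjusted p up to 0.0413) and ended with the length and GC trend removed, where the log2 change was 0.08 (adjusted p = 0.56). The gene (NCBI gene 12818) spans chromosome 15 from 55139305 to 55352358 in mm9.

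**Figure D3:**
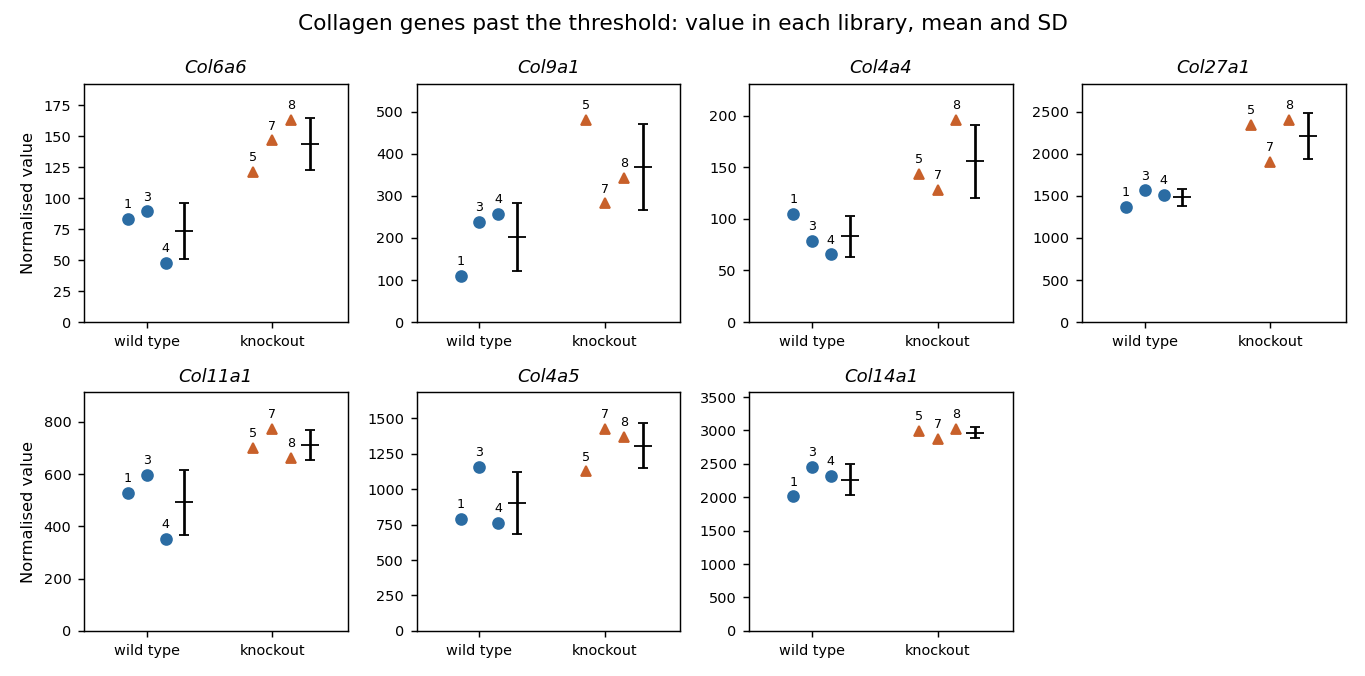
Normalised value (y axis, from 0) of the 7 collagen genes past the threshold in each library, numbered, with blue circles for wild type, orange triangles for knockout and bars for mean and SD. The genotypes do not overlap for 6 of the 7 genes, and Col4a5 overlaps through wild-type library 3 (1155) and knockout library 5 (1126).

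The 17 other collagens not called had log2 differences between -0.39 (Col22a1, SE 0.21) and 0.59 (Col25a1, SE 0.23). Col25a1, a transmembrane collagen, held 328, 236 and 182 in wild type and 277, 396 and 441 in knockout (adjusted p = 0.0718), and passed without wild-type library 1 (log2 0.81, adjusted p = 0.00852) or without knockout library 5 (0.79, 0.0417). With the length and GC trend removed it stood at 0.15. Col8a2, a short-chain collagen, was at -0.29 (SE 0.15, adjusted p = 0.15) and passed as lower without wild-type library 4 (-0.44, 0.0477). Col10a1, the collagen of hypertrophic cartilage, lay between 0.59 and 5.53 in all 6 libraries, Col28a1 between 1.70 and 11.5, and both were below the filter. Col19a1 was at 30.6 in wild-type library 1 and between 0 and 6.88 elsewhere, and was not tested for the same reason.

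Libraries of 1 genotype differed along patterns that cut across the classes. Wild-type library 1 was above both other wild-type libraries in 25 of the 40 genes and below both in 11, against 35.7% and 32.0% of all genes tested. Relative to each gene's mean over 6 libraries on the log2 scale, library 1 stood at 0.67 for Col1a1, 0.40 for Col3a1 and 0.49 for Col6a2, and at -1.24 for Col9a1, -0.64 for Col2a1 and -0.49 for Col9a2. Knockout library 7 was at 0.24 for Col1a1 and at -0.34 for Col9a2 and -0.35 for Col9a3. Both libraries were thus relatively high in type I and III chains and low in Col9a2 and Col9a3 within their genotype. Several marker sums also set wild-type library 1 and knockout library 7 apart in their genotypes. Those of 5 Sertoli markers (94908 and 59718) and 5 endothelial markers (5481 and 7178) were lowest there. Those of 5 germ cell markers (21372 and 27313) and 6 skeletal muscle markers (16845 and 886) were highest there. Of the 5 Sertoli markers, 3 were the lowest and 1 the highest of the genotype in either library. Whether any of these cell types takes part in the collagen values was not tested.

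**Figure D4:**
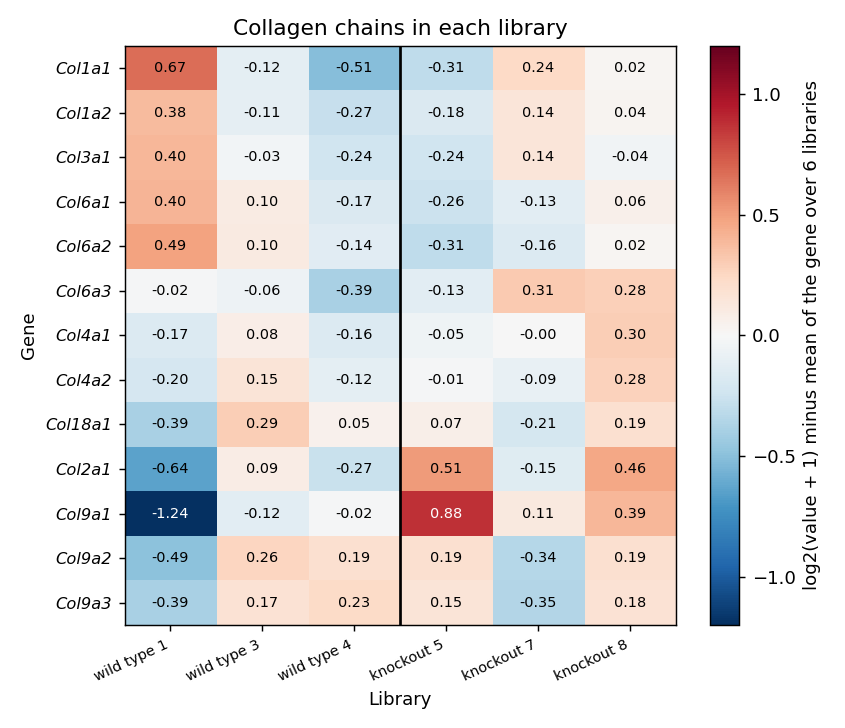
Heat map of 13 collagen chains (rows) in the 6 libraries (columns), each cell the log2(value + 1) minus the gene's mean over the libraries, red above and blue below. Wild-type library 1 is red in the type I and III, Col6a1 and Col6a2 rows and blue in Col2a1 and type IX rows, with -1.24 for Col9a1.

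Ratios between partner chains remove what both chains share within a library. For 11 pairs the log2 ratio was compared by an exact permutation test, two-sided, whose smallest possible p for 3 libraries against 3 is 0.1. The ratio of Col4a1 to Col4a2 was the steadiest of the pairs with overlapping genotypes, at 0.77 to 0.88 in wild type and 0.81 to 0.93 in knockout, a range of 0.16 over all 6 libraries (exact p = 0.4, adjusted 0.489). The spans of these genes have 2 bases between them in mm9. In the same exact test, Col1a1 to Col1a2 differed by -0.03 (p = 0.9), Col5a1 to Col5a2 by 0.06 (p = 0.7), Col8a1 to Col8a2 by 0.48 (p = 0.2) and Col4a3 to Col4a4 by -0.48 (p = 0.4), each with overlapping genotypes.

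In 6 pairs the genotypes did not overlap, each at the smallest p of 0.1 and an adjusted p of 0.183. Taken singly, 50.3% of all genes tested had groups apart, and no such share was taken for ratios of other gene pairs. Relative to Col4a6, Col4a5 was higher in every knockout library, with log2 ratios of 1.32, 1.498 and 1.63 in wild type and 1.796, 1.75 and 1.95 in knockout. Relative to Col11a2, Col11a1 was higher by 0.75 on the log2 scale. Col9a1 was higher by 0.90 relative to Col9a2 and by 0.94 relative to Col9a3, with the ratio to Col9a2 at -4.89, -4.52 and -4.35 in wild type and -3.45, -3.68 and -3.94 in knockout. Col6a1 was higher relative to Col6a2, by 0.08, and lower relative to Col6a3, by -0.53 on the log2 scale, with ratios of 2.19, 1.92 and 1.99 in wild type and 1.64, 1.33 and 1.54 in knockout. With the length and GC trend removed from each library, an alternative added after the values were seen, the genotypes overlapped for Col11a1 to Col11a2 (0.36, exact p = 0.3). They stayed apart in the same direction for the other 5 pairs, with differences of 0.28 for Col4a5 to Col4a6, 0.58 and 0.66 for Col9a1 to Col9a2 and to Col9a3, 0.14 for Col6a1 to Col6a2 and -0.24 for Col6a1 to Col6a3, each at the smallest exact p of 0.1. Of the overlapping pairs, Col8a1 to Col8a2 then stood at 0.07 and Col5a1 to Col5a2 at 0.25 (exact p = 0.9 and 0.2).

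Since Col6a6 was the one type VI chain past the test, 2 further ratios were taken after the values were seen. Relative to Col6a5, its neighbour 27984 bases away in mm9, Col6a6 was higher by 1.16 on the log2 scale, and relative to Col6a4 by 1.29 (1.26 and 1.21 with the trend removed). Both had p = 0.1, the smallest the exact permutation test can give, and the choice after the fact leaves these as description. How the authors assigned reads between such neighbouring genes, and whether strand was used, is not given in the sources used here.

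**Figure D5:**
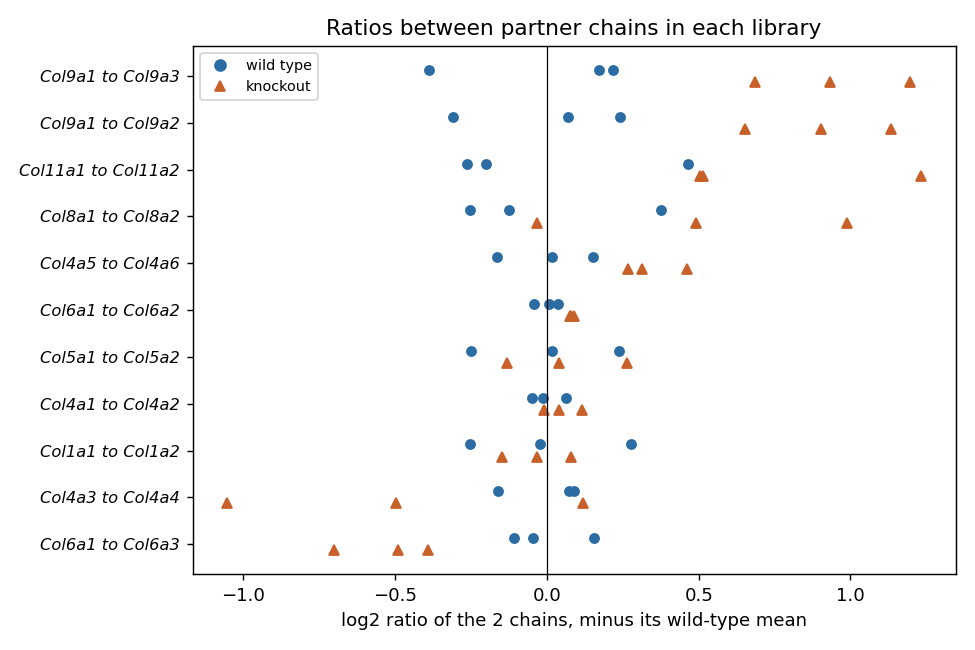
Log2 ratio of partner chains in each library minus the wild-type mean of that ratio (x axis), for 11 pairs, with blue circles for wild type and orange triangles for knockout. Col4a1 to Col4a2 stays within 0.16 over the 6 libraries, while the 2 pairs with Col9a1, Col11a1 to Col11a2, Col4a5 to Col4a6, Col6a1 to Col6a2 and Col6a1 to Col6a3 separate by genotype.

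Beyond the chains themselves, 54 of 55 genes that modify, process, bind or sense collagen were tested, and 7 were higher and 11 lower in the knockout, beside 17.3% and 17.0% of all genes. Without wild-type library 1 the counts were 6 and 7, beside 15.5% and 14.3% of all genes. With the length and GC trend removed they were 2 and 2, beside 6.07% and 6.64%. Of the 19 genes for modification and folding in the secretory pathway, 2 rose and 6 fell, with a median log2 difference of -0.17. Serpinh1, which encodes the collagen chaperone HSP47, fell from 44242, 45016 and 39606 in wild type to 30430, 26355 and 34960 in knockout (log2 -0.50, SE 0.13, adjusted p = 0.014). The groups did not overlap, and without knockout library 5 its adjusted p was 0.0534. Plod2, which hydroxylates lysines of the collagen ends used in cross-links, rose from 1562, 1643 and 1370 to 2149, 2210 and 2058 (log2 0.49, SE 0.09, adjusted p = 0.00379). Leprel1, the older symbol of the prolyl 3-hydroxylase gene P3h2, rose from 84.9, 90.8 and 55.5 to 112, 148 and 181 (log2 0.93, SE 0.25, adjusted p = 0.0167), and leaving out wild-type library 4 (0.0648) or knockout libraries 7 or 8 (0.0507 and 0.0643) ended the call.

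Named after their values were seen, the other 5 that fell were Ppib, Lepre1 and Crtap, the 3 parts of the complex that 3-hydroxylates proline in collagen, with the relative Leprel2 and the chaperone Fkbp10. Their log2 changes lay between -0.44 and -0.31 (adjusted p from 0.00291 to 0.0393). Lepre1, Crtap and Leprel2 no longer passed without wild-type library 1 (0.0604, 0.0573 and 0.117) or without knockout library 5 (0.0767, 0.0589 and 0.123). Lepre1 was also lost without wild-type library 4 (0.0602) or knockout library 7 (0.0502), and Leprel2 without wild-type library 3 (0.085) or knockout library 7 (0.101). With the length and GC trend removed, 1 gene of this list was higher, Leprel1 (log2 0.97, adjusted p = 0.0319), and 0 were lower, with Serpinh1 at -0.18 (0.253) and Ppib at 0.04 (0.834).

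Of the 13 genes for procollagen processing and cross-linking, 2 rose and 3 fell. Loxl1, a lysyl oxidase relative, fell from 3562, 2772 and 2568 to 1814, 2099 and 2002 (log2 -0.58, SE 0.12, adjusted p = 0.0062). Pcolce, which enhances removal of the procollagen tail, fell from 14139, 12864 and 13329 to 9308, 8750 and 11339 (log2 -0.46, SE 0.11, adjusted p = 0.00984). Tll1, a procollagen C-proteinase, was near the filter and rose from 17.3, 12.3 and 8.13 to 25.5, 24.7 and 27.8 (log2 1.05, SE 0.36, adjusted p = 0.0447), a call that ended without each library other than wild-type library 1. Named after their values were seen, Pxdn rose and Adamts14 fell (log2 0.34 and -0.41). Leaving out any 1 of wild-type libraries 1 and 4 and knockout libraries 7 and 8 ended the call of Pxdn (adjusted p up to 0.112), and any 1 of wild-type libraries 1 and 4 and knockout libraries 5 and 7 that of Adamts14 (up to 0.108). Lox, a lysyl oxidase, was high in wild-type library 1 and was called higher without it (log2 0.90, adjusted p = 0.0012; 0.60 and 0.0624 with it). With the trend removed, 0 of the 13 passed in either direction, and Lox stood at 0.21 (adjusted p = 0.623). With that library left out as well, Lox was called higher (0.54, 0.0162).

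Among 13 collagen-binding matrix proteins, 2 rose and 1 fell. Nid2 and Nid1 encode the nidogens, which tie type IV collagen to laminin. Nid2 rose from 2316, 2490 and 1874 to 3214, 3554 and 3402 (log2 0.62, SE 0.11, adjusted p = 0.00316), and stayed past the threshold with the trend removed (0.55, adjusted p = 0.00968). Nid1 rose from 3953, 5171 and 4337 to 5778, 6592 and 6228 (log2 0.47, SE 0.11, adjusted p = 0.00873), and did not pass with the trend removed (0.19, 0.159). Fmod, the fibril-binding proteoglycan fibromodulin, fell from 1485, 994 and 1121 to 791, 766 and 847 (log2 -0.56, SE 0.14, adjusted p = 0.0119; 0.052 with the trend removed). Hspg2, the basement membrane proteoglycan perlecan, is named after its value was seen, since it was lower with the trend removed (-0.28, adjusted p = 0.0246) and not as deposited (-0.16, 0.325).

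Of 9 collagen receptors tested, 1 rose and 1 fell. Itga2, an integrin chain, was near the filter, at 3.41, 13.3 and 10.4 in wild type and 25.5, 20.8 and 28.9 in knockout (log2 1.53, SE 0.47, adjusted p = 0.0301). Its call was kept without wild-type library 3 and ended without any of the other libraries (adjusted p from 0.0507 to 0.0918). Mrc2, an uptake receptor for collagen, fell from 3789, 3598 and 3407 to 2944, 2773 and 3269 (log2 -0.27, SE 0.09, adjusted p = 0.0435). With the trend removed its change was -0.30 (adjusted p = 0.0213), and the call ended when any library but knockout library 8 was left out (0.0717 to 0.138). The call also ended under each of the 3 other scalings (0.0601 to 0.195) and with a prior that does not depend on the mean (0.095). Itgb1, Ddr1 and Ddr2, the common integrin partner and the discoidin domain receptors, had log2 differences of 0.12, -0.11 and 0.14.

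Markers of cell types of the gonad and its surroundings were read beside the 17.3% of all genes that were higher and the 17.0% that were lower. Those shares were 15.5% and 14.3% without wild-type library 1, and 6.07% and 6.64% with the trend removed. Of 6 interstitial markers, Pdgfra (log2 0.49, adjusted p = 0.00295) and Nr2f2 (0.43, 0.0102) rose and 0 fell. Once the trend was removed they stood at 0.10 (0.281) and 0.12 (0.307). Of the 6 interstitial markers, 4 had a log2 difference above 0 as deposited and 2 below. Tcf21 was lower in every knockout library than in any wild-type one but did not pass (-0.24, adjusted p = 0.0611; -0.04 with the trend removed). The list summed to 30929 to 32341 in wild type and 34519 to 35626 in knockout. Of 6 smooth muscle and peritubular markers 4 fell and 0 rose, with Des at -1.34 (adjusted p = 0.00988), Actg2 at -1.27 (0.00874) and Tagln at -1.21 (0.00828). Without wild-type library 1 these were -0.86, -0.91 and -0.82 and all 3 stayed past the threshold. With the trend removed 1 of the 6 was lower, Des (-1.15, adjusted p = 0.049), while Actg2 (0.0752) and Tagln (0.0581) did not pass. A robust prior ended the calls of Des (0.0971) and Tagln (0.0799), and a prior that does not depend on the mean that of Des (0.051). The sum of the list was 26038 in wild-type library 1, 11267 and 14164 in the other wild-type libraries and 7924 to 8948 in knockout. Of 5 Sertoli markers Clu fell (-0.74, adjusted p = 0.00678) and 0 rose, 2 were lower without wild-type library 1, and the sum ran from 94908 to 111587 in wild type and from 59718 to 92303 in knockout. With the trend removed Clu did not pass (-0.36, 0.114), and Dmrt1, a Sertoli and germ cell transcription factor, was the 1 of the 5 called, as higher (0.41, 0.0403; 0.20 and 0.17 as deposited).

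The other marker lists held 5 or 6 tested genes each. Of 5 cartilage markers tested, Hapln1 rose (log2 0.56, adjusted p = 0.0205) and Lect1 fell (-0.44, 0.0372), and Matn3 and Comp were below the filter. The call of Hapln1 ended without knockout library 5 (0.053) or 7 (0.0601) and with the trend removed (log2 0.00), and that of Lect1 ended when any library but knockout library 8 was left out (0.0575 to 0.1175), with equal totals (0.0987) and with the trend removed (-0.18, 0.397). The cartilage list summed to 722 to 781 in wild type and 806 to 954 in knockout, of which Hapln1 made up 276 to 320 and 374 to 558. Of the 5 cartilage markers tested, 2 had a log2 difference above 0 and 3 below, with a median of -0.04. Of 5 endothelial markers Kdr rose (0.79, 0.0052) and Emcn fell (-0.35, 0.0411), with sums of 5481 to 7517 and 7178 to 7506, and Emcn lost its call when any library but wild-type library 1 was left out (0.0534 to 0.130). Equal totals (0.137), scaling by the median of ratios (0.0548) and a prior that does not depend on the mean (0.0906) also ended the call of Emcn. With the trend removed both Kdr and Emcn passed, at 0.49 (0.0468) and -0.53 (0.0139). With wild-type library 1 left out as well, Kdr did not pass (0.37, 0.0717). Of 5 germ cell markers Ddx4 rose (0.48, 0.037), with sums of 15308 to 21372 and 16398 to 27313, and its call ended when wild-type library 3 or 4 or knockout library 5 or 7 was left out (0.0702 to 0.114), with a prior that does not depend on the mean (0.106) and with the trend removed (log2 0.27, 0.217). Of the 6 mesonephric epithelium markers and the 5 skeletal muscle markers tested, 0 passed in either direction with all libraries. Without wild-type library 1, 3 mesonephric ones were lower, where 14.3% of all genes were, and with the trend removed 0 of them passed. The mesonephric sums overlapped (1286 to 2360 and 1591 to 1857). The part of these cell types in the collagen and pathway differences was not tested.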

How the data were processed

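RNA sequencing of 6 gonad libraries was analysed, 3 wild-type and 3 knockout. The deposited signal is the authors' upper-quartile normalised pseudo-counts per gene. Per the submitters' processing notes, CASAVA 1.8.2, edgeR 2.6.2 and the build mm9 were used; what each did, and the annotation, are not given. Summed values, 21657342 to 23734462 per library, follow from the normalisation and are not depths, so no counting interval is given.

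Values were taken as log2(value + 1) and fitted in limma 3.58.1 (R 4.3.3) with a mean-dependent prior, two-sided. The filter asked for a value of 10 or more in 3 or more libraries, and p-values were adjusted over all 15116. Levels per kb and the length and GC trend (natural splines, 4 degrees of freedom each, per library) used the longest protein-coding GENCODE vM21 transcript, matched by NCBI gene ID without its coordinates for 95.6% of genes. Chain ratios were tested in scipy 1.17.1, and figures drawn with matplotlib 3.10.9. Promoter sequences are RefSeq's. The fit was tested on simulated data.

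The members, lists, pairs and settings were chosen with earlier results of these data known. Each type I, III, IV and VI chain, each called member and up to 3 called genes of each other list are named. Alternatives were pseudocounts of 0.5, 5 and 10, no filter, a filter at 50, 3 other scalings, library weights, 2 other priors, each library left out, and trend removal with and without wild-type library 1. The labels speak of littermates and not of separate litters or batches, so p-values measure the spread between these libraries only. The result of 1 gene of the interstitial marker list is not reported here.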

Additional observations from a re-analysis of the deposited data

How the results depend on the processing

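No paired analysis was possible because the wild-type libraries (1, 3 and 4) and the knockout libraries (5, 7 and 8) share no replicate number. With all libraries 5180 genes were called, 7 collagen genes higher and 0 lower, and 7 pathway genes higher and 11 lower. Leaving out each library in turn gave 3032 to 5041 calls in all, the fewest without wild-type library 4. Collagen genes higher then numbered 2 (without knockout library 8, where 14.9% of all genes were higher) to 8 and lower 0 to 1, and pathway genes higher 3 to 6 and lower 5 to 14. Over these settings 10.8% to 16.5% of all genes were higher and 9.24% to 16.8% lower. Without wild-type library 4, 4 collagen genes were higher and 1 was lower, where 10.8% and 9.24% of all genes were. With the length and GC trend removed, 1836 genes were called, 1 collagen gene higher, and 2 pathway genes higher and 2 lower; with wild-type library 1 also left out the numbers were 1723, 3, 3 and 2. Without a mean-dependent prior 4 collagen genes were higher, where 14.1% of all genes were higher (17.3% with it). Library weights gave 8 higher and 2 lower (Col6a2 and Col6a4), with 17 pathway genes lower, where 23.5% of all genes were higher and 24.4% lower. Equal totals and quantile normalisation each gave 6 pathway genes lower, where 11.2% and 16.0% of all genes were lower. Equal totals moved the median of all genes by 0.10 (log2), raised the higher share of calls from 50.4% to 67.5% and gave 10 collagen genes higher, where 23.2% of all genes were higher; 25 of the 40 lay above the median of all genes under either scaling. Trend removal reversed 4 pathway genes called lower: Crtap (0.14 without the trend, 0.14 without wild-type library 1 too), Ppib (0.0375, 0.0035), Pcolce (0.0182, 0.0394) and, with that library left out, Leprel2 (0.017); none then passed. The cartilage marker Hapln1 likewise went to -0.0358 with both. The cause was not tested. Of the 7 called collagen genes, Col27a1 kept its call in 19 of 19 alternatives, Col6a6 and Col14a1 in 17, Col4a4 in 16, Col4a5 in 13, Col11a1 in 12 and Col9a1 in 11. The unknown depth limits what can be said of genes with low values such as Col4a3, Col6a5 and Tll1.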
